A study of Mus musculus with 15 samples.

Results

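Expression of 9 genes of the Notch pathway was examined in cultured mouse lens cells: the ligand *Jag1*, the receptors *Notch1*, *Notch2* and *Notch3*, the proteases *Adam10* and *Psen2*, the nuclear factor *Rbpj* and the target genes *Hes1* and *Hey1*. They were chosen by name, with earlier results of these data known. They were matched to the gene symbols of the expression data, which hold 11677 genes for whole cultures and 11299 genes for spheroid regions. In both data sets 8 of the 9 genes were found, and *Hey1* was not analysed here. All 15 samples came from 21EM15, an immortalized mouse lens epithelial cell line, all are labelled WT (wild type), and the labels give no treatment. There were 4 samples of cells grown flat (2D), 4 of cells grown as spheroids in wells to which they do not adhere (3D), and 4 of the internal and 3 of the external region cut from spheroids by laser capture microdissection. RNA from whole cultures and from cut regions was extracted with different kits, and each sample was pooled from many spheroids, except in 2D. A further external sample was not analysed here. The study removed it because it differed from the other 3 in a principal component analysis. The spread between the external samples kept may therefore be too small.

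Notch signaling passes between touching cells. A ligand such as Jagged 1 on one cell binds a Notch receptor on its neighbor, the ADAM10 protease sheds the outer part of the receptor, and gamma-secretase, of which presenilin 2 (*Psen2*) can be the catalytic subunit, frees the inner part. This fragment enters the nucleus, joins the DNA-binding protein RBPJ and turns on genes such as *Hes1*, which encodes a transcriptional repressor. In the lens, *Jag1* and Notch signaling are known for maintaining epithelial progenitor cells and for the growth of fiber cells.

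Libraries were made from the 3′ end of transcripts, so that the number of reads of a gene does not scale with its length and levels can be set side by side between genes. Values are log2 CPM, the log2 of read counts scaled to the size of each library, and the 2 data sets were normalized separately, so that levels were not compared between them. The listed genes held between 7305053 and 9362587 reads per culture sample and between 4044230 and 11702504 per region sample. A count of 3 reads, taken as the smallest signal that this depth can show, corresponded to 0.248 to 0.802 CPM. The line was checked against lens markers: 5 of 8 epithelial markers were measured in both data sets, without *Foxe3*, *Cdh1* and *Cryaa*, and the fiber markers *Mip*, *Lim2*, *Bfsp2*, *Gja3*, *Crygs*, *Crybb2* and *Cryba1* were in neither.

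The positions of the 5 genes called below are given on GRCm38 with the GENCODE vM21 annotation. *Notch3* lies on the minus strand at chr17:32120820-32166852, *Psen2* on the minus strand at chr1:180227004-180263438 and *Jag1* on the minus strand at chr2:137081456-137116644. *Notch2* lies on the plus strand at chr3:98013527-98150361, where the gene models *Gm42819* and *Gm42820* overlap it on the same strand, and *Rbpj* on the plus strand at chr5:53466152-53657362. Of the other genes, *Notch1* lies at chr2:26457903-26516663 (minus strand), where *Mir6996* overlaps it on the same strand. *Hes1* lies at chr16:30064384-30067796 (plus strand) and *Adam10* at chr9:70678997-70780229 (plus strand). For each of the 5 called genes, the sequence before a RefSeq start site on GRCm38.p6 is printed. For *Psen2* and *Rbpj* this start lies inside the span of the gene given above. Both have another RefSeq start, whose window is not printed. A window held the 250 bases before the RefSeq start, without those that GENCODE places in an exon, which leaves 118 to 250 bases outside annotated exons. Capitals mark TGGGAA, the core of the sequence that RBPJ recognizes, or its reverse complement TTCCCA. The printed stretches are chr17:32166891-32167140 (minus strand) for *Notch3*, chr1:180245951-180246200 (minus strand) for *Psen2*, chr2:137116645-137116770 (minus strand) for *Jag1*, chr3:98013288-98013526 (plus strand) for *Notch2* and chr5:53590096-53590213 (plus strand) for *Rbpj*, each written 5′ to 3′ along its gene.
Notch3: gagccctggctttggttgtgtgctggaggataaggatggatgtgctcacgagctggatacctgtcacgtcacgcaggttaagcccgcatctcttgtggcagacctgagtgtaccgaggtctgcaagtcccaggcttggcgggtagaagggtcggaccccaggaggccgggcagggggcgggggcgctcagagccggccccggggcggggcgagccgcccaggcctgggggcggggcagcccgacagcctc
Psen2: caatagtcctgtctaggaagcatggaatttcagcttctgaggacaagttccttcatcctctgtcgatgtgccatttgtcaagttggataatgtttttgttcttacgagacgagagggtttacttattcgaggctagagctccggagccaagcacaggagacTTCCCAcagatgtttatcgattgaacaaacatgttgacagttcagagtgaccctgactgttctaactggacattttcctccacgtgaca
Jag1: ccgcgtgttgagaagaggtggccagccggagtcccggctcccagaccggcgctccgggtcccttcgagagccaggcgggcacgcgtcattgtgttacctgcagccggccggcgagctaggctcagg
Notch2: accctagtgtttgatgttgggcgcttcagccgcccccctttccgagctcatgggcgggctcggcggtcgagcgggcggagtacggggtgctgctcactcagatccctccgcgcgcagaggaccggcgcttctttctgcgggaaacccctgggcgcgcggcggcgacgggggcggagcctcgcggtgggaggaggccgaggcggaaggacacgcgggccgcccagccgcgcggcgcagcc
Rbpj: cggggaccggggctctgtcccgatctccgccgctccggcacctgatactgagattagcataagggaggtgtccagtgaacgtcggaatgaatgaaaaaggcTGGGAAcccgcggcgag

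In the set of RefSeq windows used here, 7 of the 9 genes had a window of 250 bases, and *Hes1* and *Hey1* had no entry. The letters TGGGAA, searched on both strands, were found for 2 of these 7 genes, *Rbpj* and *Psen2*, and for 24.1% of the 27025 genes with such a window. In *Psen2* the match began 89 bases before the start printed above, and its other start had none. In *Rbpj* one match began 149 bases before the start and another 65 bases before it, the latter in the part that is not printed. A match describes the sequence and does not show that RBPJ binds there.

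The first comparison asked which of these genes differed between cells grown in 3D and in 2D. By the study's methods, spheroids were cultured for longer than the 2D dishes, which were taken before full confluence. Growth form, time in culture and state of growth therefore differed together and cannot be told apart. *Notch3*, a receptor, rose 7.81-fold in its fitted level, and *Psen2*, a catalytic subunit of gamma-secretase, rose 3.05-fold. *Hes1* was at a higher level in every 3D sample than in every 2D sample but missed the threshold. Mean levels of the ligand *Jag1*, the receptors *Notch1* and *Notch2*, *Rbpj* and *Adam10* differed by at most 0.41 log2 units. A gene was called at an adjusted p under 0.01 together with an absolute log2 fold change over 1, with limma's moderated test on log2 CPM, two-sided and adjusted over all genes by the Benjamini-Hochberg method. By this rule 2 of the 8 genes were higher in 3D, where 2.92% of all genes were, and 0 of 8 were lower, where 1.51% of all genes were. At an unadjusted p under 0.05 there were also 0 of 8 lower, where 17.0% of all genes were, and 0 of 8 by limma-voom on read counts, where 164 of 11677 genes were. With the adjusted p alone the same 2 genes were higher, against 3.61% of all genes, and 0 of 8 lower, against 2.70%. The groups did not overlap for 3 of the 8 genes, *Notch3*, *Psen2* and *Hes1*, all higher in 3D, where 12.0% of all genes were higher and 12.0% lower without overlap. The study had already listed *Notch3* and *Psen2* among genes elevated in 3D, so these counts are a description.

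**Figure D1:**
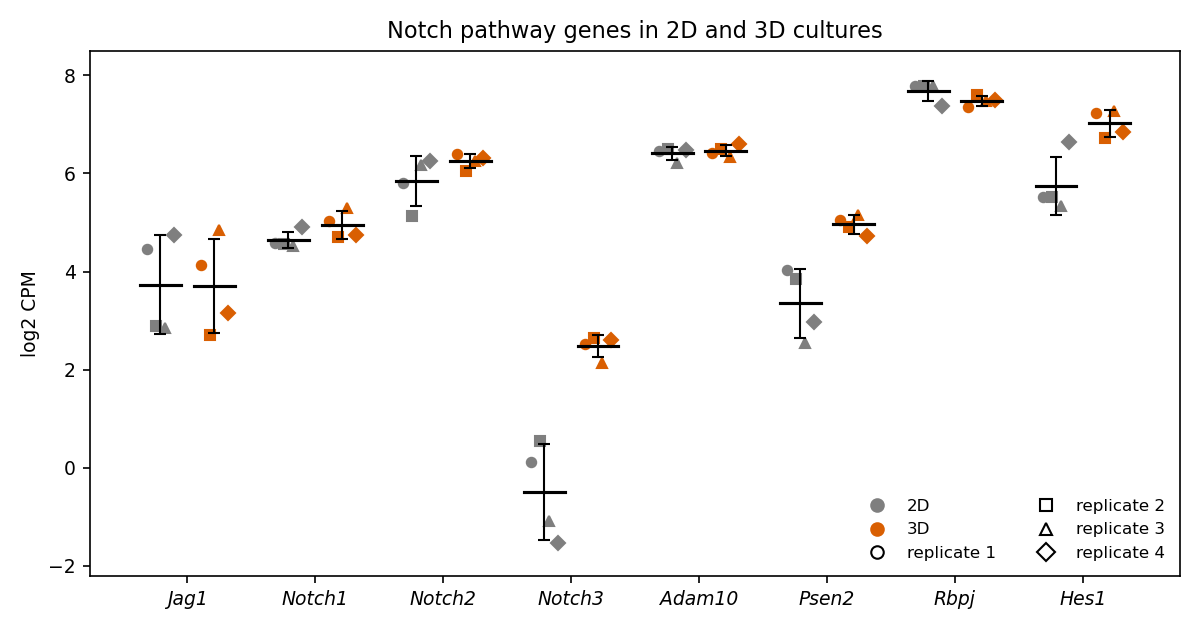
Level of each of the 8 genes (y axis, log2 CPM) in the 4 2D samples and the 4 3D samples, each point being a sample with its symbol giving the replicate number. Horizontal lines are means and vertical bars are SDs (n = 4). *Notch3*, *Psen2* and *Hes1* show no overlap between 2D and 3D, and the points of *Jag1* spread over 1.90 log2 units in 2D and 2.13 in 3D.

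*Jag1*, which encodes the ligand, varied more within the groups than between them. Its levels were 4.46, 2.88, 2.84 and 4.74 log2 CPM in 2D replicates 1 to 4, from 52 to 254 reads, and 4.14, 2.71, 4.84 and 3.16 in 3D replicates 1 to 4, from 51 to 218 reads. Both groups held samples near 3 and samples above 4, so that they overlapped almost entirely. Mean *Jag1* was 3.73 ± 1.01 (SD, n = 4) for the 2D samples and 3.71 ± 0.96 (SD, n = 4) for the 3D samples, which gave a difference of -0.02 with a 95% confidence interval from -1.23 to 1.20 (adjusted p = 0.986 in limma). The SD within groups, pooled over 2D and 3D, was 0.99 log2 units for *Jag1*, larger than for 93.8% of the 11677 genes, whose median was 0.31. The data do not exclude a change of *Jag1* of about 1 log2 unit in either direction.

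*Notch3* was the receptor with the fewest reads. In 2D replicates 1 to 4 it had 8, 9, 2 and 1 reads, or 0.11, 0.55, -1.08 and -1.54 log2 CPM, and 2 of these samples lay under 3 reads. In 3D replicates 1 to 4 it had 43, 49, 32 and 47 reads, or 2.52, 2.65, 2.14 and 2.60 log2 CPM. Every 3D sample was thus above every 2D sample, and the 3D samples lay close together. Mean CPM was 0.601 ± 0.526 in 2D and 5.38 ± 0.848 in 3D (SD, n = 4), a ratio of 8.95. On the log2 scale the fitted difference was 2.97 with an SE of 0.49 (95% confidence interval 1.88 to 4.05, adjusted p = 0.00352 in limma). It depended on the reads added before taking logs, being 3.47 with 0.5 reads, 2.41 with 5 reads and 3.54 in limma-voom. Without any 1 of the 3D samples the difference stayed between 2.91 and 3.08, and the adjusted p rose to 0.0137 without 3D replicate 1, 0.0117 without 2, 0.0136 without 3 and 0.0168 without 4.

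*Notch1* and *Notch2* did not pass the test. *Notch1* ranged from 4.53 to 4.90 log2 CPM in 2D and from 4.70 to 5.30 in 3D, a difference of 0.30 (95% confidence interval -0.10 to 0.71, adjusted p = 0.266 in limma). *Notch2* ranged from 5.14 to 6.25 in 2D and from 6.04 to 6.39 in 3D, a difference of 0.41 (95% confidence interval -0.10 to 0.91, adjusted p = 0.238 in limma). Both receptors overlapped between the groups. *Notch2* had the most reads of the receptors in every culture sample. As a share of the reads of the 3 receptors together, *Notch3* made up 1.05, 2.06, 0.246 and 0.0984% in 2D replicates 1 to 4 and 4.52, 6.22, 3.47 and 5.23% in 3D replicates 1 to 4. The 95% Wilson interval of the highest 2D sample, 1.09 to 3.88%, overlapped that of the lowest 3D sample, 2.47 to 4.86%. The share of *Notch2* was 69.0% ± 7.30 in 2D and 67.7% ± 3.03 in 3D (SD, n = 4), so that *Notch3* remained a small part of the receptor RNA in 3D. These shares are a description and rest on the same reads as the levels.

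The proteases differed from each other. *Adam10*, which sheds the receptor, lay between 6.22 and 6.49 log2 CPM in 2D and between 6.33 and 6.59 in 3D. Its difference was 0.05 (95% confidence interval -0.23 to 0.32, adjusted p = 0.830 in limma), the narrowest interval among the 8 genes in this comparison. *Psen2* was at 4.03, 3.85, 2.55 and 2.97 log2 CPM in 2D replicates 1 to 4, from 48 to 154 reads. In 3D replicates 1 to 4 it was at 5.05, 4.91, 5.15 and 4.72, from 211 to 272 reads. All 3D samples were above all 2D samples, and the 2D samples fell into a higher pair, replicates 1 and 2, and a lower pair, replicates 3 and 4. The difference of the means, 3.35 ± 0.71 and 4.96 ± 0.19 (SD, n = 4 each), was 1.61 with an SE of 0.31 (95% confidence interval 0.91 to 2.30, adjusted p = 0.00745 in limma). The adjusted p of *Psen2* missed 0.01 without 2D replicate 3 (0.0126), 2D replicate 4 (0.0228) and 3D replicates 1 to 4 (0.0253, 0.0186, 0.0312 and 0.0219), with differences between 1.34 and 1.69, and it was 0.0170 without a variance trend.

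*Rbpj*, the DNA-binding partner of the receptor fragment, was the most abundant of the 8 genes in 2D and 3D. It was at 7.78, 7.79, 7.79 and 7.38 log2 CPM in 2D replicates 1 to 4 and at 7.35, 7.59, 7.47 and 7.50 in 3D replicates 1 to 4. The 2D replicate 4 lay with the 3D samples, and the other 2D samples lay above all of them. The difference was -0.21 with a 95% confidence interval from -0.50 to 0.08 (adjusted p = 0.290 in limma). Stretches of 50 nt from the last 300 nt of *Rbpj* transcripts also occur in the pseudogenes *Rbpj-ps1* and *Rbpj-ps3*, in 668 of 1952 stretches, so that reads lying within shared sequence may not have been placed uniquely, and the *Rbpj* level is uncertain. How many reads this concerns was not tested. The other 7 genes shared no such stretch with another gene.

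*Hes1*, the target gene, was at 5.51, 5.51, 5.34 and 6.63 log2 CPM in 2D replicates 1 to 4, from 333 to 948 reads. In 3D replicates 1 to 4 it was at 7.23, 6.73, 7.27 and 6.85, from 855 to 1184 reads. The 2D replicate 4 was close to the lowest 3D sample, and the other 2D samples were more than 1 log2 unit below all 3D samples. The difference was 1.27 with an SE of 0.27 (95% confidence interval 0.68 to 1.86), and its adjusted p of 0.0101 in limma missed the threshold of 0.01. Without 2D replicate 4 it was 1.56 with an adjusted p of 0.00143, and over the other fits that left out 1 sample the adjusted p ran from 0.0141 to 0.0390.

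**Figure D2:**
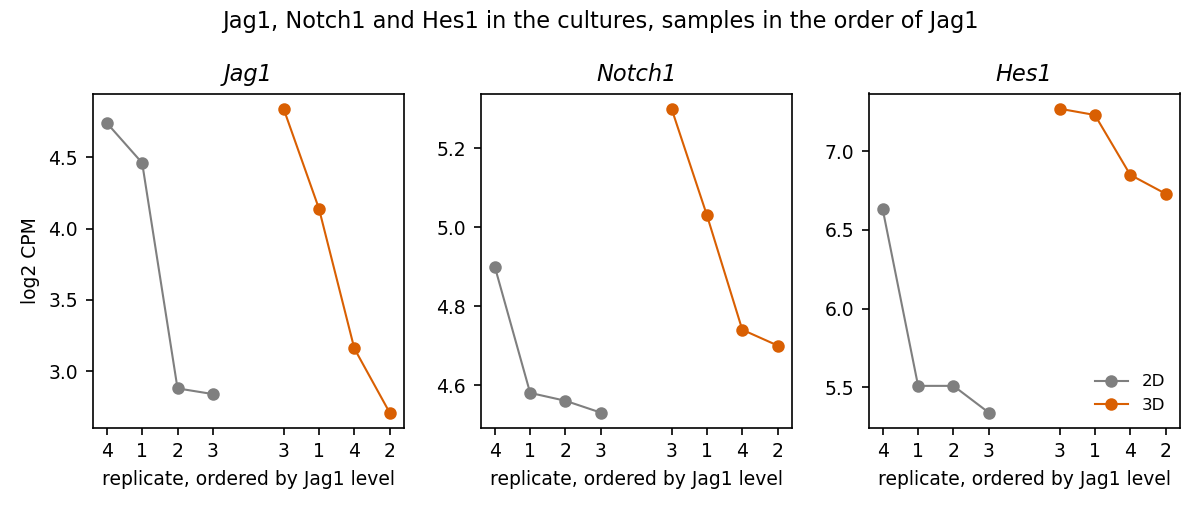
Levels of *Jag1*, *Notch1* and *Hes1* (y axis, log2 CPM, with its own scale in each panel) in the 2D and 3D samples, which are ordered along the x axis by their *Jag1* level within each group and labelled by replicate number. Each point is 1 sample. All 3 genes descend in the same order of samples within 2D and within 3D.

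The order of the samples was the same for *Jag1*, *Notch1* and *Hes1*, a pattern singled out after the values had been seen. From high to low it was replicates 4, 1, 2 and 3 in 2D and replicates 3, 1, 4 and 2 in 3D. The order is a description and was not tested. Some of the steps were small: *Notch1* spanned 4.53 to 4.58 over 3 of the 2D samples, and *Hes1* was at 5.51 in 2 of them. The order of *Notch2*, *Notch3*, *Psen2*, *Rbpj* and *Adam10* was another in at least 1 of the groups. In bulk samples such as these, fewer cells that express a gene and less RNA of it per cell cannot be told apart.

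Marker genes of lens and other cell types were read in the same comparison. The 5 measured markers of the lens epithelium list, *Pax6*, *Six3*, *Cryab*, *Cp* and *Dkk3*, summed to 863 to 1473 CPM in 2D and 2467 to 3175 CPM in 3D. Of these, *Cp* and *Dkk3* were called, with differences of 3.84 and 2.39 (adjusted p = 0.00183 and 0.00368 in limma), and *Cryab* is also known from fiber cells. The 2 measured fiber markers, *Prox1* and *Maf*, summed to 46.7 to 87.1 CPM in 2D and 145 to 223 CPM in 3D, and neither was called (adjusted p = 0.147 and 0.0189 in limma). The 6 mesenchymal markers summed to 957 to 3998 CPM in 2D and 1266 to 1837 CPM in 3D, with *Acta2* as the most abundant of them. *Col3a1* was higher in 3D by 2.49 (adjusted p = 0.00384 in limma) and *Pdgfrb* by 1.03 (adjusted p = 0.00526), and the other 4 were not called. None of 4 endothelial markers was measured, and the 1 measured macrophage marker of 4 stayed at or under 1.64 CPM. The part of these in the results on the Notch pathway was not tested.

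The wider pathway was described with a list of 83 genes grouped by role, of which 68 were measured in the cultures. In 3D 4 of the 68 rose, against 2.92% of all genes: *Notch3*, *Psen2*, *Dtx3* and *Dtx4*. *Dtx3* and *Dtx4* encode ubiquitin ligases of the Deltex family, which act on Notch receptors, and they rose by 1.28 (adjusted p = 0.00718) and 1.42 (adjusted p = 0.00332) on the log2 scale in limma. Without 1 of the 3D samples between 0 and 1 of the 68 were called, while the count over all genes was 161 to 382 in place of 517. Without 2D replicate 2 there were 8, of which 1 was lower in 3D, with 770 over all genes, and without 2D replicate 3 there were 2, with 351 over all genes. In 3D 0 of the 68 fell by the same rule in limma, against 1.51% of all genes, while 7 were lower at an unadjusted p under 0.05, against 17.0% of all genes, and 0 were called lower by limma-voom, against 164 of 11677 genes. The median difference was 0.02 over the list, 0.35 over the 8 genes and -0.03 over all 11677 genes.

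Among the genes of the list that were not called, the lowest adjusted p values toward 3D belonged to *Numbl*, *Hes1* and *Dtx3l*. *Numbl*, a relative of the Notch inhibitor Numb, differed by 0.72 (adjusted p = 0.00718 in limma), and *Dtx3l*, a further Deltex gene, by 1.41 (adjusted p = 0.0109 in limma). Toward 2D they belonged to *Mib1*, a ubiquitin ligase that ligands need for signaling, at -0.69 (adjusted p = 0.0239 in limma), to *Neurl1b*, another ligand ubiquitin ligase, at -0.94 (adjusted p = 0.0260 in limma), and to the coactivator *Ep300* at -0.53 (adjusted p = 0.0281 in limma). By role, all 6 measured gamma-secretase genes had positive differences, from 0.12 to 1.61, and only *Psen2* of them was called. Of all genes, 5587 of 11677 had a positive difference. The 11 measured genes of receptor glycosylation and furin processing had 8 negative and 3 positive differences with a median of -0.33. The ligands *Jag2*, *Dll1*, *Dll3*, *Dll4* and *Dlk1*, the receptor *Notch4* and the targets *Hes5*, *Hes7*, *Hey1*, *Hey2* and *Heyl* were not matched in the culture data.

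The second comparison asked which of these genes differed between the internal and the external region of the spheroid. The zone between them could not be microdissected by the study and was not measured. In the study's staining, JAG1 protein was enriched in lateral areas around the central axis. In fitted level, *Jag1* was 3.52-fold and *Notch2* 2.01-fold higher in the internal than in the external region, and *Rbpj* was 2.06-fold lower. *Notch1* and *Hes1* passed the adjusted p but not the fold change threshold, with higher means in the internal region. *Notch3*, *Psen2* and *Adam10* did not pass. By the rule used above 2 of the 8 genes were higher in the internal region, where 3.27% of all genes were, and 1 of 8 was lower, where 4.35% of all genes were. With the adjusted p alone 4 of 8 were higher, against 5.20% of all genes, and 1 lower, against 7.88%. The groups did not overlap for 5 genes higher in the internal region, where 13.5% of all genes were, and for 1 gene lower, where 15.4% of all genes were. As the study had already listed *Jag1* among genes higher in the internal region, these counts are a description too.

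**Figure D3:**
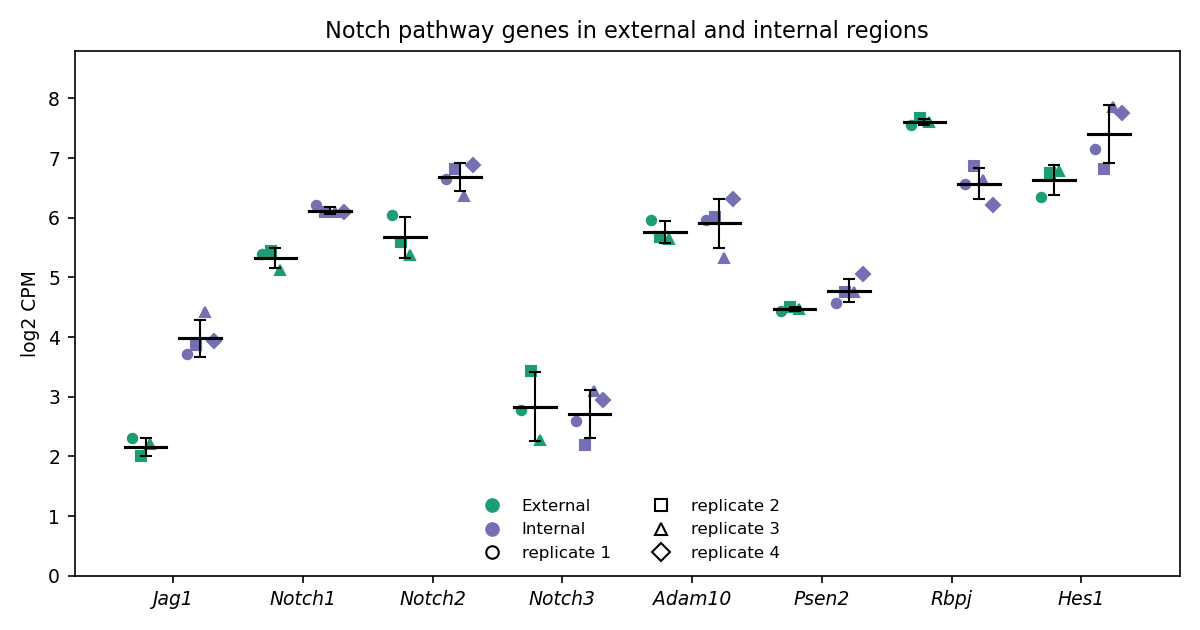
Level of each of the 8 genes (y axis, log2 CPM) in the 3 external and 4 internal samples, each point being a sample with its symbol giving the replicate number. Horizontal lines are means and vertical bars are SDs (n = 3 external, n = 4 internal). *Jag1*, *Notch1*, *Notch2*, *Hes1* and *Psen2* are higher in every internal sample than in every external one, and *Rbpj* is lower in every internal sample.

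*Jag1* had few reads in the external region. Its levels were 2.30, 2.00 and 2.20 log2 CPM in external replicates 1 to 3, from 28, 17 and 16 reads. In internal replicates 1 to 4 they were 3.71, 3.86, 4.42 and 3.94, from 85, 123, 92 and 182 reads. The internal samples lay more than 1 log2 unit above all external samples, and the SD within groups, pooled over both regions, was 0.26. The difference was 1.82 with an SE of 0.40 (95% confidence interval 0.98 to 2.65, adjusted p = 0.00190 in limma). Without internal replicate 3, the sample highest in *Jag1*, it was 1.67 with an adjusted p of 0.0108, and with limma-voom on read counts the adjusted p was 0.0263.

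*Notch2* was at 6.04, 5.60 and 5.37 log2 CPM in external replicates 1 to 3 and at 6.65, 6.81, 6.37 and 6.89 in internal replicates 1 to 4. The external replicate 1 came nearest to the internal samples. The difference was 1.01 with an SE of 0.20 (95% confidence interval 0.60 to 1.42, adjusted p = 0.000528 in limma), just over the fold change threshold. Reads where other gene models overlap *Notch2* on its strand cannot be told apart from its own. The difference was 0.98 without external replicate 2, 0.86 without external replicate 3, 0.97 without internal replicate 2 and 0.94 without internal replicate 4, with an adjusted p of at most 0.00573 in limma, and 0.94 with each sample centred on its median. Without a variance trend the adjusted p was 0.0284.

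*Notch1* was at 5.39, 5.45 and 5.12 log2 CPM in external replicates 1 to 3 and between 6.09 and 6.21 in the internal samples. The internal samples were all higher and nearly equal. The difference was 0.80 with an SE of 0.19 (95% confidence interval 0.41 to 1.20, adjusted p = 0.00367 in limma), with an adjusted p of 0.0216 without external replicate 3, 0.0148 without internal replicate 1 and 0.0200 without a variance trend. *Notch3* ranged from 2.28 to 3.43 log2 CPM in the external and from 2.19 to 3.10 in the internal region, from 17 to 90 reads. These ranges overlapped, and the difference was -0.12 (95% confidence interval -1.12 to 0.87, adjusted p = 0.888 in limma). The interval leaves room for a difference of *Notch3* near 1 log2 unit in either direction. *Notch3* had 7.24% ± 2.60 of the reads of the 3 receptors in the external region (SD, n = 3) and 3.63% ± 1.20 in the internal region (SD, n = 4). Its share was between 5.67 and 10.2% in the external and between 2.32 and 5.17% in the internal samples, a description of the same reads, in which *Notch1* and *Notch2* had higher levels in the internal region. The 95% Wilson interval was 3.57 to 8.89% for the lowest external sample and 3.76 to 7.08% for the highest internal sample, so that these samples overlap within counting error.

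*Adam10* ranged from 5.64 to 5.97 log2 CPM in the external and from 5.33 to 6.31 in the internal region, a difference of 0.15 (95% confidence interval -0.31 to 0.60, adjusted p = 0.686 in limma). *Psen2* was at 4.44, 4.51 and 4.47 log2 CPM in external replicates 1 to 3 and at 4.57, 4.76, 4.75 and 5.05 in internal replicates 1 to 4. Every internal sample was above the external samples, the lowest by little. The difference was 0.31 (95% confidence interval -0.23 to 0.84, adjusted p = 0.437 in limma).

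*Rbpj* was at 7.56, 7.67 and 7.60 log2 CPM in external replicates 1 to 3, and at 6.57, 6.86, 6.63 and 6.22 in internal replicates 1 to 4. The external samples lay within 0.10 log2 units, and all internal samples were lower. The level fell by 1.04 on the log2 scale from the external to the internal region, with an SE of 0.17 (95% confidence interval -1.38 to -0.70, adjusted p = 6.12e-05 in limma). Without internal replicate 4 and with scaling by total reads the difference was -0.93, under the fold change threshold, with an adjusted p of 0.000323 and 0.000209. Without a variance trend the adjusted p was 0.0163. The sequence that *Rbpj* shares with its pseudogenes makes this value uncertain as well.

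*Hes1* was at 6.35, 6.75 and 6.79 log2 CPM in external replicates 1 to 3 and at 7.16, 6.82, 7.86 and 7.75 in internal replicates 1 to 4. The lowest internal sample, replicate 2, was just above the highest external sample. The difference was 0.77 with an SE of 0.21 (95% confidence interval 0.34 to 1.20, adjusted p = 0.00912 in limma). The adjusted p was 0.00104 without internal replicate 2 and lay between 0.0109 and 0.0644 in the other 6 fits that left out 1 sample, and it was 0.129 without a variance trend, 0.0179 in limma-voom and 0.0183 with median centring. Internal replicate 3 was the highest of its group in *Jag1* and in *Hes1*.

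**Figure D4:**
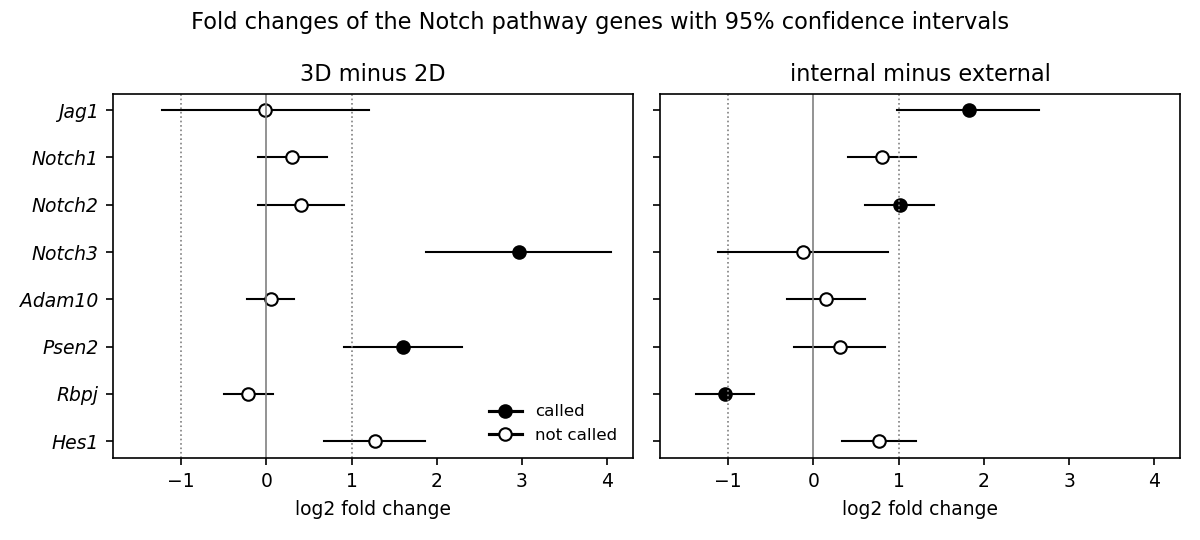
Log2 fold change of each of the 8 genes (x axis) for 3D minus 2D on the left and internal minus external on the right, with 95% confidence intervals from limma as bars. Filled points are called, and dotted lines mark the fold change threshold of 1. *Notch3* and *Psen2* are called on the left, *Jag1*, *Notch2* and *Rbpj* on the right, and none of the 8 genes is called in both.

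Values of other cell markers differed between the regions too. The 4 measured fiber markers, *Prox1*, *Maf*, *Hsf4* and *Bfsp1*, summed to 145 to 183 CPM in the external and 402 to 446 CPM in the internal samples, and the first 3 of them were called higher in the internal region. The 5 markers of the epithelium list summed to 1912 to 2093 CPM in the external and 2569 to 3107 CPM in the internal samples, with differences of 0.39 to 0.77, under the fold change threshold. The 4 measured mesenchymal markers of 6 summed to 738 to 949 CPM in the external and 412 to 487 CPM in the internal samples. They did not move together: *Acta2* differed by -2.56 (adjusted p = 5.53e-11 in limma) and *Col1a1* by -1.56 (adjusted p = 0.000206), *Col3a1* by 1.59 (adjusted p = 3.68e-05) and *Pdgfrb* by 0.87 (adjusted p = 0.00102). The 10 most abundant genes took 12.05 to 12.92% of the reads in external and 15.29 to 18.06% in internal samples. The 2 measured macrophage markers of 4 stayed at or under 10 CPM, and none of the 4 endothelial markers was measured. The part of these in the results was not tested.

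Of the 83 genes of the pathway list, 65 were measured in the regions. In the internal region 3 of the 65 were higher, *Jag1*, *Notch2* and *Dtx4*, against 3.27% of all genes, and 1 was lower, *Rbpj*, against 4.35%. These counts were near the share over all genes or under it. *Dtx4* rose from 6.31 ± 0.47 log2 CPM in the external (SD, n = 3) to 8.17 ± 0.37 in the internal region (SD, n = 4), a difference of 1.86 (adjusted p = 5.52e-07 in limma). Without internal replicate 4 only *Jag1* and *Dtx4* of the list were called, and without a variance trend only *Jag1*. The median difference was 0.21 over the list, 0.54 over the 8 genes and 0.04 over all 11299 genes.

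Of the genes of the list that were not called, *Aak1*, a kinase of endocytosis that acts on Numb, had the lowest adjusted p toward the internal region, with a difference of 0.96 (adjusted p = 0.000156 in limma), followed by *Notch1* and *Hes1*. Toward the external region these were *Gxylt1*, which adds xylose to Notch receptors, at -0.60 (adjusted p = 0.0344 in limma), *Neurl1b* at -2.53 (adjusted p = 0.0473 in limma) and its relative *Neurl1a* at -2.05 (adjusted p = 0.0976 in limma). *Neurl1b* had between 1 and 43 reads in the internal samples and *Neurl1a* between 0 and 64, so that some of these samples lay under the 3-read limit. By role, the 12 measured genes of receptor turnover, the group of Numb and the Deltex genes, all had positive differences, from 0.05 to 1.86, with 11 of 12 positive when samples were centred on their median, and only *Dtx4* of them was called. Of all genes, 5980 of 11299 had a positive difference. *Dtx4* was the one gene of the list that was called in both comparisons.

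**Figure D5:**
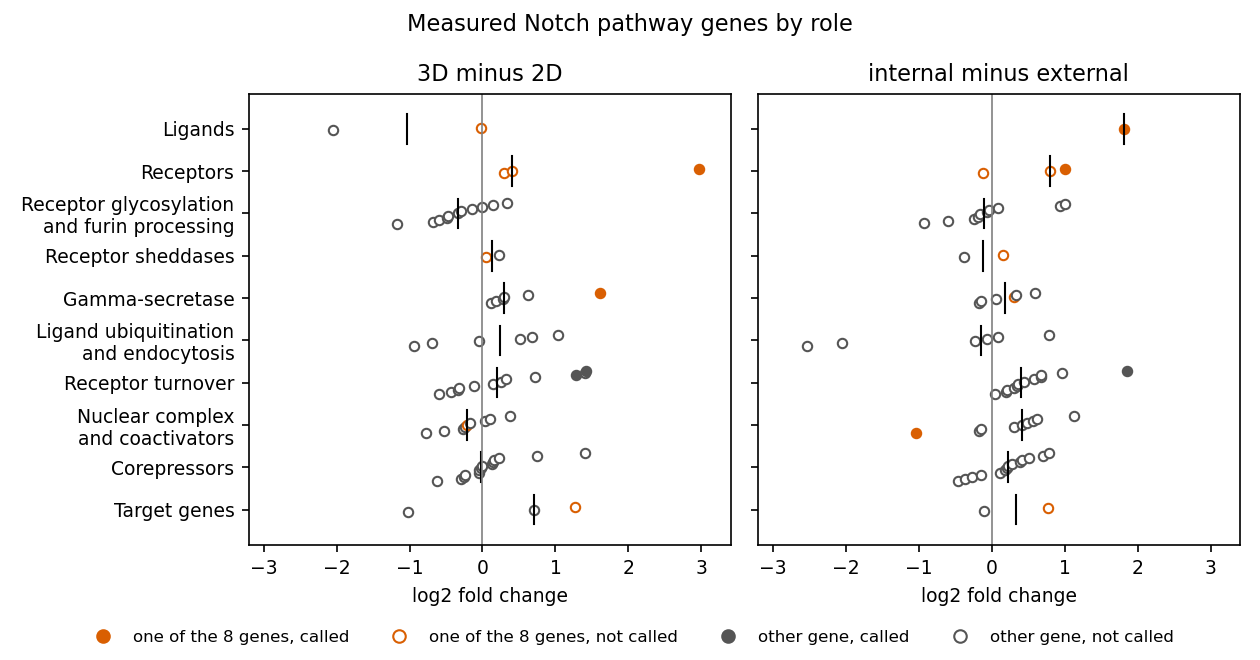
Log2 fold changes (x axis) of the measured genes of the pathway list by role (y axis), 68 genes for 3D minus 2D on the left and 65 for internal minus external on the right, with a black line at the median of each role. Filled points are called, and the 8 genes described in detail are in orange. The receptor turnover genes lie to the right of 0 between the regions, 11 of 12 with median centring, with *Dtx4* filled in both panels.

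The genes whose levels ran most closely with *Notch3* over the 8 culture samples, out of 8830 genes whose mean reached 3 log2 CPM, were *Ormdl3*, *Cbarp* and *Nenf*, with Pearson's r of 0.997, 0.996 and 0.993. Those closest to *Jag1* over the 7 region samples, out of 8861 such genes, were *Ifi27l2a*, *Tpp1* and *Rgs2*, with r of 0.992, 0.990 and 0.988. As 2 groups of samples make up each set of points, any gene that separates the groups in the same direction has a high r, and these values are a description.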

How the data were processed

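RNA of 21EM15 cells was sequenced from the 3′ end in 15 samples. The authors kept sense reads, aligned them to GRCm38.p6 (STAR 2.7.8a), took unique alignments into gene counts (featureCounts 1.6.0), removed genes of low CPM and tested genes with edgeR. Each sample has log2 CPM values deposited by the authors, in 2 separately normalized tables, with a prior count of 2.0 reads on average. Their columns of fold changes, test statistics, p-values and group means were not used. The annotation release is not given in the sources used here.

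Whole reads were recovered from the spacing of the log2 values for 100.0% of 93416 and 79093 values (tolerance 0.1 reads). Reads copied by PCR cannot be told apart, so limits from depth cover counting error only. Tests used limma 3.58.1 in R 4.3.3, with empirical Bayes moderation, a variance trend and adjustment by Benjamini-Hochberg across a whole table. They were also run on simulated reads, with changes larger than those of most genes called here. That run does not cover changes as small as these. The study gives an adjusted p of 0.01 in its results and of 0.05 in its methods, and 0.01 was used. The labels do not say that replicates were separate cultures, so p-values measure only the spread between these samples.

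The members and lists were chosen with earlier results of these data known. The study lists *Notch3* and *Psen2* as elevated in 3D and *Jag1* as higher in the internal region, from these same samples. Counts of called members set beside the share of all genes are therefore a description and not a test. Named genes were the 9 members, all called genes of the pathway list, the 3 with the lowest adjusted p per direction and comparison among the others, and the 3 most correlated with *Notch3* in the cultures and *Jag1* in the regions. The markers named in describing the samples were added. Some items are not reported here. Replicate numbers were not taken to pair samples. Alternatives were a threshold of 0.05 for the adjusted p, no threshold on the fold change, a minimum mean of 1 log2 CPM, no variance trend, a robust prior, prior counts of 0.5 and 5, total read scaling, median centring, limma-voom on the recovered reads, a replicate block, and each sample left out. Python 3.11.15 and matplotlib 3.10.9 were also used.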

Additional observations from a re-analysis of the deposited data

Results flagged for a closer look

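In groups of 4 samples, a sample was looked for whose distance to the nearest other one was most of the range of its group, which chance gives in about 1 of 20 groups. Of 24 groups of the 8 genes, 5 had such a sample. *Hes1* stood apart in 2D replicate 4 at 6.63 log2 CPM, against 5.34 to 5.51 in the other 2D samples, with 948 reads against 333 to 434. *Notch1* stood apart in the same sample at 4.90 log2 CPM, against 4.53 to 4.58. *Rbpj* was lower there than in the others, at 7.38 log2 CPM against 7.78 to 7.79. *Adam10* stood apart in 2D replicate 3 at 6.22 log2 CPM, against 6.45 to 6.49. *Notch1* stood apart in internal replicate 1 at 6.21 log2 CPM, against 6.09 to 6.10.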

How the results depend on the processing

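Of the 8 genes, 2 were called for 3D against 2D and 3 between the regions. For 3D against 2D, 1 was called with a minimum mean of 1 log2 CPM, since *Notch3* then leaves the genes tested, 1 (*Notch3*) without a variance trend, and 0 to 2 with a sample left out. Of the pathway list 4 were called, 9 at an adjusted p of 0.05, 2 without a variance trend and 0 to 8 with a sample left out. Of all genes 517 were called, 978 at an adjusted p of 0.05 and 161 to 770 with a sample left out. Between the regions, 5 of the 8 genes, 7 of the list and 1478 of all genes, against 861, were called without a fold change threshold, and 1, 1 and 324 without a variance trend. With a sample left out, 1 to 3 of the 8 genes, 2 to 4 of the list and 649 to 850 of all genes were called.

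Differences near 0 changed sign when a sample was left out: *Jag1* in the cultures ran from -0.39 to 0.32 (0.23 without 2D replicate 1, 0.32 without 2D replicate 4, 0.31 without 3D replicate 2 and 0.17 without 3D replicate 4), *Adam10* in the cultures from -0.02 to 0.09 and *Notch3* in the regions from -0.40 to 0.18 (0.05 without internal replicate 2). *Hes1* in the cultures was called at an adjusted p of 0.05, with median centring (adjusted p = 0.00845 in limma) and with a prior count of 5 (0.00955). Total read scaling moved the median of all genes between the regions by 0.11 and left the direction of the 8 genes as it was. The cause of these changes was not tested.

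Same-numbered samples of 2D and 3D correlated at 0.227, 0.503, 0.066 and 0.005 in their deviations from the group means, and those of the regions at -0.044, -0.065 and -0.063. When a term for the replicate was added (replicate block), 3 of the 8 genes, 6 of the list and 602 of all genes were called for 3D against 2D, *Hes1* being added (adjusted p = 0.00870 in limma). Between the regions, where the block leaves internal replicate 4 without a partner, the replicate block gave 0, 1 and 655, with differences of 1.83 for *Jag1* (adjusted p = 0.0115 in limma), 0.94 for *Notch2* and -0.93 for *Rbpj*. Depth limits *Notch3* in 2D, with 1 to 9 reads, and *Jag1* in the external region, with 16 to 28 reads.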
